A study of Mus musculus with 8 samples.

Results

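The genes described here are the tissue inhibitors of metalloproteinases, Timp1 to Timp4, and 4 genes of the plasminogen activator system: Plau, Plat, Plaur and Serpine2. They were chosen by gene symbol. Each gene was read by its brightest probe set that is annotated with 1 gene symbol. Of these 8 genes, 7 had such a probe set and are among the 18193 genes tested. The gene table used lists no probe set for Serpine2, which was not analysed here.

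Expression was measured on Affymetrix mouse arrays in primary palatal mesenchyme of C57BL/6J embryos, taken at embryonic day 13.5 and grown for 2 passages. The mutant group (4 arrays) had the genotype Tgfbr2 fl/fl; Wnt1-Cre, and the control group (4 arrays) had the genotype Tgfbr2 fl/fl without Cre. The titles of the control samples read Tgfbr2 Wildtype. By the genotypes given above, both groups carried floxed alleles of Tgfbr2, the type II TGF-beta receptor. The Wnt1 promoter confines Cre to the neural crest lineage, so cells of other origin in the cultures keep the receptor. Whether the samples are from separate embryos is not stated in the labels. The p-values therefore reflect spread among these cultures, part of which may be technical, and the number of arrays limits the precision of every value.

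Timps are secreted proteins that block the active site of matrix metalloproteinases. Plau (urokinase) and Plat (tissue-type plasminogen activator) are serine proteases that turn plasminogen into plasmin, which digests fibrin, activates metalloproteinases and can release TGF-beta from its latent complex. Plaur is the receptor that holds urokinase on the cell surface. TGF-beta is known to raise Timp1 and Timp3 in cultured fibroblasts, and metalloproteinases and Timps are expressed in the palatal shelves while they grow and fuse.

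None of the 7 genes passed the test between genotypes. Timp3, Timp1 and Plaur were lower in mutant than in control cells by about 1.5-fold to 1.6-fold on average, each with an unadjusted p under 0.05 in limma. Timp2 and Plau had smaller or more variable differences, also negative, while Timp4 and Plat had small positive ones. With Benjamini-Hochberg adjustment over all genes, 0 of the 7 had an adjusted p under 0.05 in limma, against 0.0879% of all genes tested (16 of 18193). At an unadjusted p under 0.05, 3 of the 7 were lower and 0 were higher in mutant cells, against 9.69% and 5.84% of all genes tested. The 7 differences had a median of -0.49 on the log2 scale, against -0.0078 over all genes. That median is the difference of Plau itself, a variable gene, and without control array 4 the median was -0.14.

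The bases upstream of the transcription start are shown for the 3 genes with an unadjusted p under 0.05, because these are the genes the comparison turns on. They are RefSeq sequences of build GRCm38.p6, 250 bases ending just before the start. Capitals mark matches, on either strand, to the AP-1 motif (TGANTCA), the short SMAD element (CAGAC), the palindromic SMAD element (GTCTAGAC) and the GC box (GGGCGG).
Timp3, chr10:86300162-86300411, plus strand: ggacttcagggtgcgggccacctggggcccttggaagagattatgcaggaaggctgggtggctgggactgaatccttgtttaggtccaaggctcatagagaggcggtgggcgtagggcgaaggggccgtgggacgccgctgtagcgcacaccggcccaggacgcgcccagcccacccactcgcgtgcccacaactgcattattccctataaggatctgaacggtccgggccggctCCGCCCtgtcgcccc
Timp1, chrX:20869916-20870165, plus strand: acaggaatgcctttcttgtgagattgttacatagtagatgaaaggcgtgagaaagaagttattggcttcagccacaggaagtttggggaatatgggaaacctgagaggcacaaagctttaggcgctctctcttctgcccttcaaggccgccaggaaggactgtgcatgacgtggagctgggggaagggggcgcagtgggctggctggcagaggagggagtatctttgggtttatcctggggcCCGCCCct
Plaur, chr7:24462233-24462482, plus strand: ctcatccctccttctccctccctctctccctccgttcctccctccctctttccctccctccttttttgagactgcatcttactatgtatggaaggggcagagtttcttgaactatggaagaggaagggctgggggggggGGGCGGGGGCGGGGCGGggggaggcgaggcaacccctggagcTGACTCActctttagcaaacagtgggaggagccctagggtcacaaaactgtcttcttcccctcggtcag
Timp3 and Timp1 each hold a single GC box, on the minus strand, which ends 10 bases before the start in Timp3 and 3 bases before it in Timp1. Plaur holds 3 GC boxes close together and 1 AP-1 motif, which ends 63 bases before the start. None of these 3 windows holds either form of the SMAD element. Of 32851 mouse windows of this length, 32.7% hold a GC box, 6.75% the AP-1 motif, 42.2% the short SMAD element and 0.167% the palindromic element. Timp2 also has 1 GC box and Timp4 has 1 short SMAD element. Promoter entries were matched for 5 of the 7 measured genes, the others being Plau and Plat. A match is a description of these letters and does not show binding.

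Timp3, the Timp that stays bound to extracellular matrix and also inhibits ADAM and ADAMTS proteases, was the member with the smallest p. Its log2 intensity was 10.59, 11.10, 10.61 and 11.12 on mutant arrays 1 to 4, against 11.82, 11.63, 11.25 and 11.38 on control arrays 1 to 4. All mutant arrays lay below all control arrays. Such a separation was seen in 8.07% of all genes, and with mutants lower in 5.18%. Among the 7 members only Timp3 showed it, in either direction. The means were 10.85 ± 0.29 in mutant and 11.52 ± 0.25 in control arrays (SD, n = 4 each), a log2 difference of -0.67 (SE 0.17, 95% interval -1.07 to -0.27, adjusted p = 0.189 in limma). On a linear scale this is a mutant level of 0.630 times the control level (95% interval 0.478 to 0.832).

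The 3 further probe sets of Timp3 can be set beside the brightest one. Numbered by brightness, the second differed by -0.72 (SE 0.20), the third by -0.81 (SE 0.17) and the fourth by -0.82 (SE 0.20), in a limma fit over all probe sets. Their adjusted p values were 0.206, 0.177 and 0.196 in limma. The genotypes did not overlap on the third and the fourth. On the second, mutant array 4 read 10.91 and control array 3 read 10.87, which was the only crossing. All 4 probe sets thus had the same sign and a similar size, but they measure the same RNA on the same arrays and are not independent replicates.

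Timp1, a broadly inducible Timp of connective tissue, was bright on all arrays. It read 13.49, 13.75, 13.59 and 14.62 on mutant arrays 1 to 4, against 14.48, 14.32, 14.63 and 14.44 on control arrays 1 to 4. Mutant arrays 1, 2 and 3 lay below every control array, while mutant array 4 lay above all controls except control 3. The means were 13.86 ± 0.52 in mutant and 14.47 ± 0.13 in control arrays (SD, n = 4 each). The difference was -0.61 (SE 0.23, 95% interval -1.14 to -0.07, adjusted p = 0.277 in limma).

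Mutant array 4 decided whether these genes passed the test. Without it, Timp1 differed by -0.86 (adjusted p = 0.0136 in limma) and Timp3 by -0.75 (adjusted p = 0.0467), and both then passed over all genes. Without that array 1316 genes passed in all, against 16 with it. Leaving out any other single array gave differences from -0.66 to -0.48 for Timp1 and from -0.76 to -0.57 for Timp3, none past the threshold. The count of 3 genes at an unadjusted p under 0.05 also moved. It was 4 without mutant 4, with Timp2 added, and 3 without control 2. It was 1, Timp3 alone, without any one of mutants 1, 2 and 3 or controls 1, 3 and 4.

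Timp2, which inhibits metalloproteinases and also helps Mmp14 to activate the Mmp2 precursor, read 13.50, 13.70, 13.74 and 14.12 on mutant arrays 1 to 4, against 13.71, 13.87, 14.12 and 14.11 on control arrays 1 to 4. The groups overlapped over most of their range, and mutant array 4 was again the highest mutant. The difference was -0.19 (SE 0.15, 95% interval -0.53 to 0.16, adjusted p = 0.582 in limma). The other 5 probe sets of Timp2 were also negative, from -0.36 to -0.12, and no probe set of Timp2 had an unadjusted p under 0.05 in limma.

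Timp4, a Timp whose expression is restricted to few adult tissues such as heart, was only a little brighter than the median probe set (6.94). It read 7.62, 7.55, 7.77 and 7.67 on mutant arrays 1 to 4, against 7.47, 7.60, 7.62 and 7.58 on control arrays 1 to 4. The groups overlapped, and the spread within each was small. The difference was 0.09 (SE 0.08, 95% interval -0.09 to 0.26, adjusted p = 0.616 in limma). The second, dimmer probe set of Timp4 read -0.04 with a mean of 4.44, so neither probe set gave a sign that can be told from 0.

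**Figure D1:**
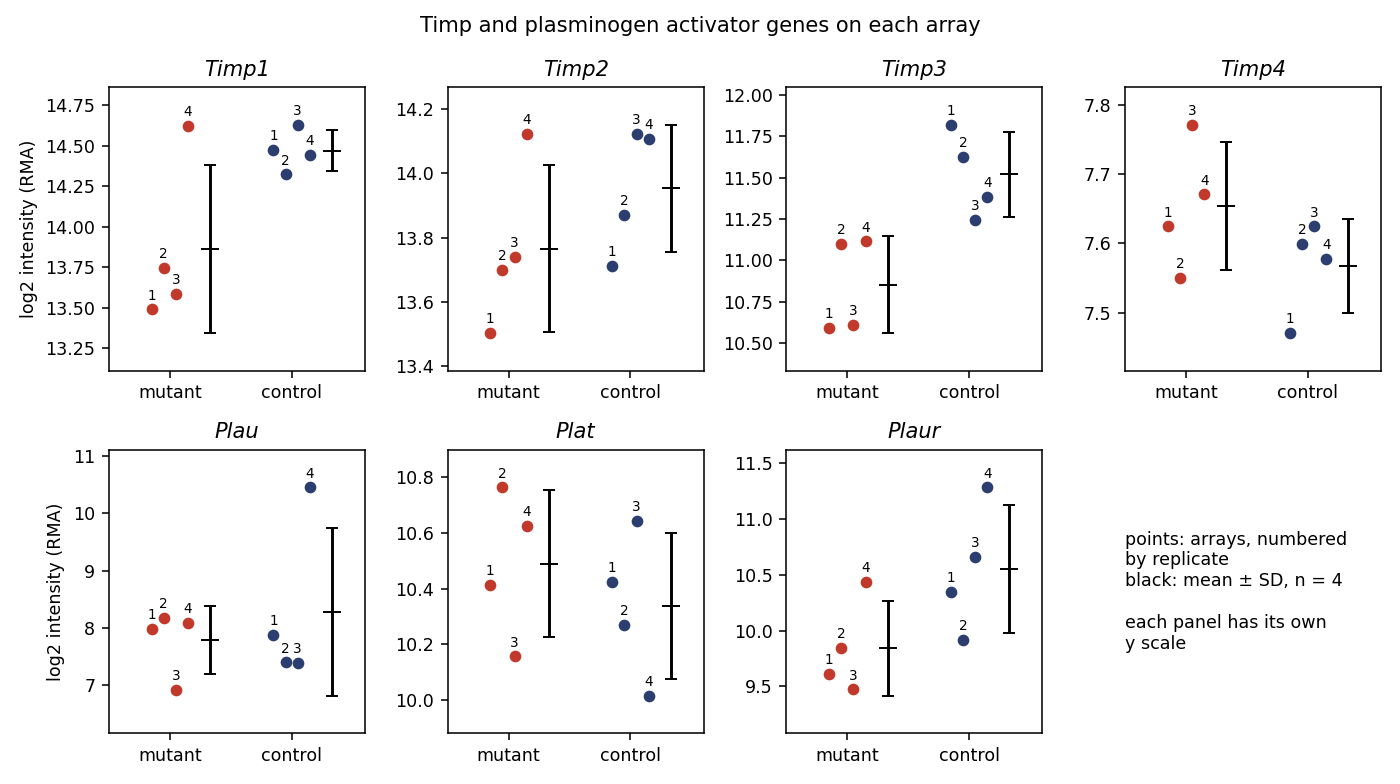
Log2 intensity of the 7 measured genes (y axis, RMA units, each panel with its own scale) on 4 mutant arrays (left, red) and 4 control arrays (right, blue), numbered by replicate, with the mean and SD in black. Timp3 is the panel without overlap, mutant array 4 sits with the controls for Timp1, and control array 4 stands far above the others for Plau.

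The urokinase receptor gene Plaur had the most negative difference of the 7. It read 9.61, 9.85, 9.47 and 10.44 on mutant arrays 1 to 4, against 10.35, 9.92, 10.66 and 11.28 on control arrays 1 to 4. Mutant arrays 1, 2 and 3 lay below all controls, and mutant array 4 lay between control 1 and control 3. The means were 9.84 ± 0.43 in mutant and 10.55 ± 0.57 in control arrays (SD, n = 4 each), a difference of -0.71 (SE 0.31, 95% interval -1.42 to -0.0034, adjusted p = 0.320 in limma). Control array 4 carried much of it, and without that array the difference was -0.47 (adjusted p = 0.437 in limma).

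Plau, the urokinase gene, varied more between arrays of a genotype than 99.1% of all genes. It read 7.98, 8.18, 6.92 and 8.10 on mutant arrays 1 to 4, against 7.88, 7.40, 7.40 and 10.45 on control arrays 1 to 4. Control array 4 was the highest by far, and the other controls lay within the mutant range. The difference was -0.49 (SE 0.67, 95% interval -2.03 to 1.05, adjusted p = 0.765 in limma), and without control array 4 its sign turned, to 0.23 (adjusted p = 0.750 in limma). The dimmer second probe set of Plau read 6.78, 6.84, 6.25 and 6.98 on mutant arrays 1 to 4, against 6.89, 6.61, 6.54 and 8.22 on control arrays 1 to 4, so the high reading of control 4 was seen on both probe sets. The same array was the highest for Plaur.

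Plat, the tissue-type activator gene, read 10.41, 10.76, 10.16 and 10.62 on mutant arrays 1 to 4, against 10.42, 10.27, 10.64 and 10.02 on control arrays 1 to 4. The groups overlapped over most of their range, with mutant 2 above every control and control 4 below every mutant. Control array 4, the highest array for Plau, was the lowest for Plat. The difference was 0.15 (SE 0.17, 95% interval -0.23 to 0.54, adjusted p = 0.700 in limma). The dimmer second probe set of Plat gave 0.11 (95% interval -0.09 to 0.31).

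**Figure D2:**
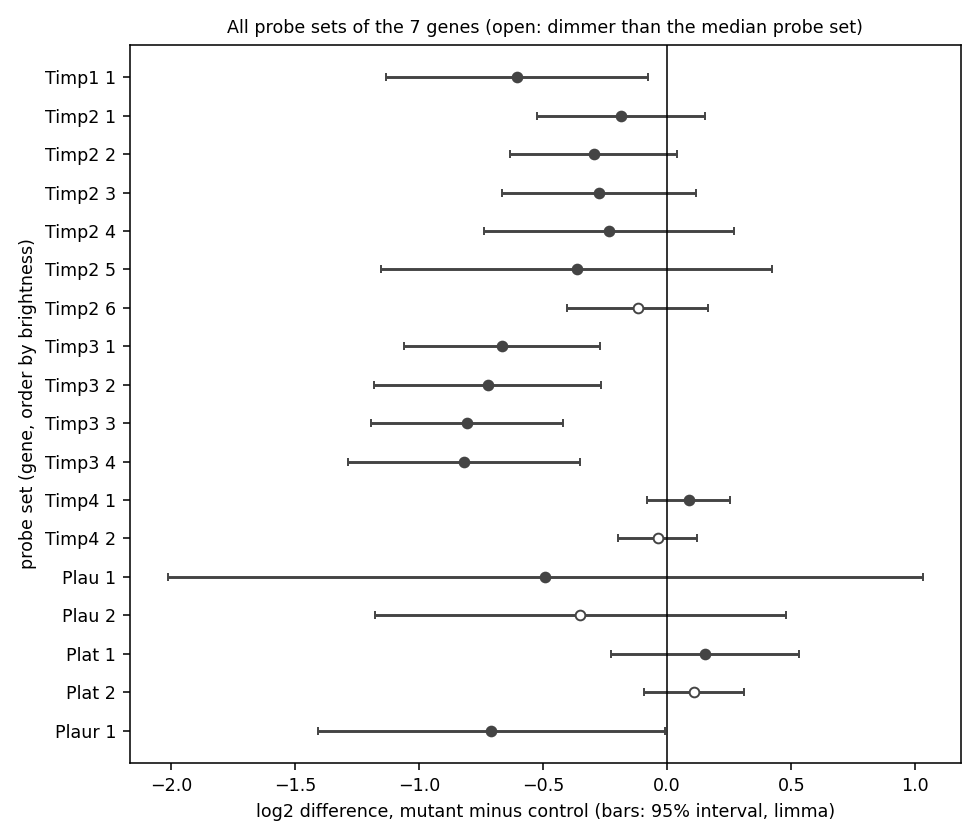
Log2 difference, mutant minus control (x axis, with the 95% interval from limma), for all 18 probe sets of the 7 genes (y axis, gene and order by brightness); open points are dimmer than the median probe set. The 4 probe sets of Timp3 lie between -0.82 and -0.67 with intervals below 0, the 6 of Timp2 are all slightly negative, and the interval of the brightest Plau probe set spans -2.01 to 1.03.

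Over the 18 probe sets of these genes, 15 were lower and 3 were higher in mutant cells. An unadjusted p under 0.05 was reached by 6, all lower, against 7.2% of all probe sets that were lower at this threshold. These 6 were the probe sets of Timp3, Timp1 and Plaur. The genotypes did not overlap, with mutants lower, for 3 of the 18, all of Timp3, against 3.66% of all probe sets in that direction. Probe sets of 1 gene are not independent, and Timp2 has 6 of the 18 and Timp3 has 4.

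The arrays also differed in ways that moved with some of these genes. The labels name no batch, so arrays were grouped by spike-in level alone, and such a group is called a batch here. Hybridisation controls (bioB spike-ins) divided replicates 1 and 2 of both genotypes from replicates 3 and 4, with means of 6.34 to 6.52 and 8.24 to 8.79. Within the first of these batches Timp3 differed by -0.88, Timp1 by -0.78 and Plaur by -0.40, and within the second Timp3 differed by -0.45, Timp1 by -0.43 and Plaur by -1.02. Over all genes, Timp1 (adjusted p = 0.0139) and Timp3 (adjusted p = 0.0284) passed in limma within the first batch, where 2085 genes passed, and neither did within the second (adjusted p = 0.851 and 0.819). The sign was the same in both batches for these 3 genes. For Timp3 this was certain beforehand, since its groups do not overlap. For Timp1 and Plaur it was certain in the first batch, since mutants 1 and 2 lay below every control. The difference between batches was not tested. Plau differed by 0.44 in the first batch and by -1.42 in the second. With this batch as a block, 0 of the 7 genes passed over all genes in limma and the same 3 had an unadjusted p under 0.05. The poly-A labelling controls divided the arrays differently, with means of 7.28 and 7.56 on mutants 4 and 3 and 6.77 on control 3, against 8.53 to 9.21 on the other 5 arrays, control 4 among them. With that division as a block, Timp1 differed by -0.70 and Timp3 by -0.63, both still with an unadjusted p under 0.05 in limma. Plaur differed by -0.76 and no longer had one (adjusted p = 0.241 in limma). Within mutants 3 and 4 and control 3, Timp3 differed by -0.38, Timp1 by -0.53 and Plaur by -0.70, and within the other 5 arrays by -0.76, -0.80 and -0.79, none past the test over all genes in limma.

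Macrophage and leukocyte markers had high readings in these cultures. Of the 25 markers, 24 exceeded the median probe set on each of the 8 arrays, against 11262 of all 18193 genes tested. A positive difference was found for 25, against 8795 of the 18193. Over all genes 0 of the 25 passed in limma. At an unadjusted p under 0.05 in limma, 7 markers were higher and 0 lower in mutant cells, against 5.84% and 9.69% of all genes tested. Their mean per array was 13.06, 13.05, 13.11 and 10.97 on mutant arrays 1 to 4, against 12.26, 12.45, 11.06 and 10.92 on control arrays 1 to 4. The means were 12.55 ± 1.05 in mutant and 11.67 ± 0.80 in control arrays (SD, n = 4 each, exact two-sided permutation p = 0.2, where 0.0286 is the smallest possible). The mutant arrays with low Timp1 and Plaur, 1 to 3, were those with the highest marker level, and mutant array 4 had a marker level like those of controls 3 and 4. With the marker mean as a covariate, Timp1 differed by -0.31 (adjusted p = 0.337 in limma), Plaur by -0.29 (adjusted p = 0.423) and Timp3 by -0.66 (adjusted p = 0.185). Timp2 and Plau then differed by 0.0088 and -0.04. The difference of Timp3 was thus nearly the same with and without the covariate, while those of Timp1 and Plaur were smaller by a factor of over 1.5. In bulk RNA, a smaller share of mesenchymal cells and less of a transcript per cell cannot be told apart.

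**Figure D3:**
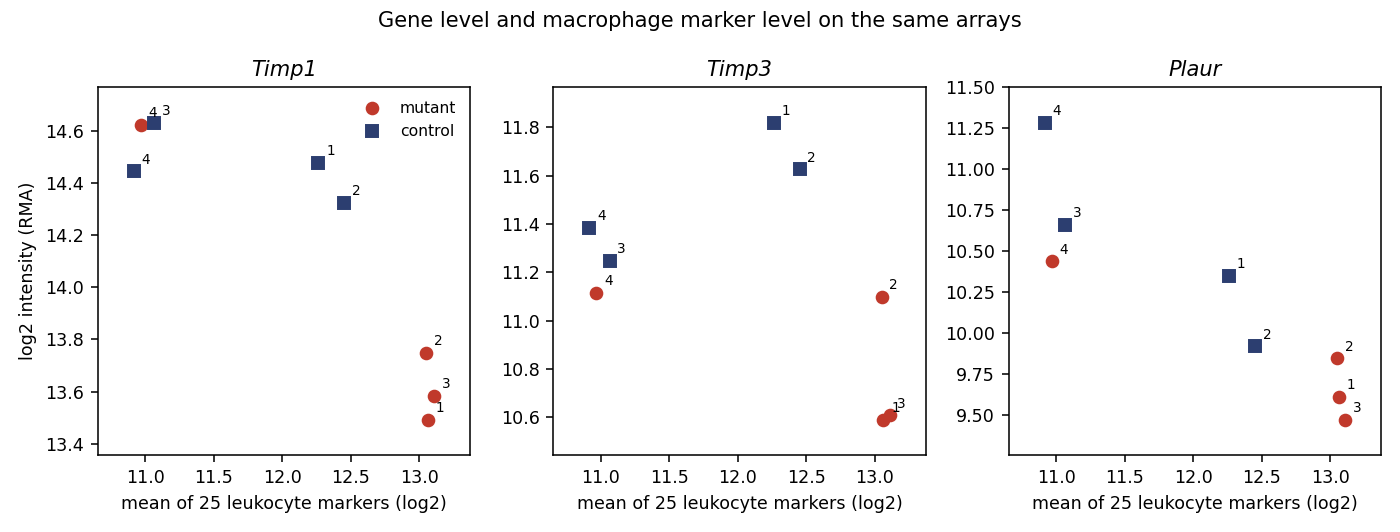
Log2 intensity of Timp1, Timp3 and Plaur (y axes) against the mean log2 intensity of 25 macrophage and leukocyte markers (x axes) on 4 mutant arrays (red circles) and 4 control arrays (blue squares), numbered by replicate. Arrays with a marker level near 13.1 have the lowest Timp1 and Plaur, and mutant array 4 lies beside controls 3 and 4. Timp3 is lower on all mutant than on all control arrays, whatever their marker level. Only mutant array 4 lies within the marker range of the controls.

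Of 16 genes that mark palatal mesenchyme, 13 exceeded the median probe set on each array, among them Prrx1, Shox2 and Barx1, while Osr2 (mean 6.63) was below it on every array and Dlx5 (mean 7.31) and Meox2 (mean 8.73) on some. The mean of these 16 genes was 11.41, 11.68, 11.69 and 11.99 on mutant arrays 1 to 4, against 11.97, 11.92, 12.01 and 11.32 on control arrays 1 to 4. It was thus lower on mutants 1 to 3, the arrays with low Timp1 and Plaur, than on mutant 4 and controls 1 to 3, and lowest on control 4. Over all genes 0 of the 16 passed in limma. At an unadjusted p under 0.05 in limma, 3 were lower and 0 higher in mutant cells, against 9.69% and 5.84% of all genes tested. The 3 were Dlx5 (-1.13), Col3a1 (-0.38) and Col1a1 (-0.37). The part of these markers in the differences of Timp1 and Plaur was not tested. Epithelial and endothelial markers were mostly dim, with 3 of 15 and 3 of 13 above the median on all arrays. Endothelial cells are a known source of Plat. The endothelial mean was 6.47 to 6.57 on mutant arrays and 6.43 to 6.65 on control arrays, and that of epithelium was 6.35 to 6.43 on mutant arrays and 6.21 to 6.34 on control arrays. Muscle markers averaged 6.57 to 6.91 on mutant and 6.58 to 6.87 on control arrays, and nerve and glial markers 6.80 to 7.17 on mutant and 6.94 to 7.59 on control arrays. Tgfbr2 itself read 12.42 ± 0.47 in mutant and 12.04 ± 0.40 in control arrays (SD, n = 4 each, adjusted p = 0.538 in limma). The position of its probes with respect to the floxed segment is unknown here, so these values do not check the genotype labels. By array, Tgfbr2 read 12.63, 12.76, 12.55 and 11.73 on mutants 1 to 4, against 12.40, 12.38, 11.72 and 11.66 on controls 1 to 4. It was lowest on mutant 4 and controls 3 and 4, the arrays with the lowest macrophage marker level. The part of cell makeup in these values was not tested.

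Of 24 other measured genes of the plasminogen pathway, 0 passed over all genes in limma, against 0.0879% of all genes tested. At an unadjusted p under 0.05 in limma, 3 of the 24 were lower and 0 higher in mutant cells. The shares of all genes tested were 9.69% and 5.84%. The median difference was -0.09. Anxa2, a cell-surface docking protein for plasminogen and Plat, was the steadiest of these, with 14.14, 14.26, 14.28 and 14.27 on mutant arrays 1 to 4, against 14.42, 14.45, 14.49 and 14.47 on control arrays 1 to 4. The groups did not overlap, at a difference of -0.22 (SE 0.06, adjusted p = 0.202 in limma). Mrc2, a collagen uptake receptor that associates with the urokinase receptor, averaged 9.75 ± 0.76 in mutant and 10.70 ± 0.40 in control arrays (SD, n = 4 each), a difference of -0.95 (SE 0.37). Thbd, thrombomodulin, differed by -0.55 (SE 0.23). Serpinb6a, an intracellular serpin, differed by 0.14 (SE 0.08), and all its mutant arrays read above all its control arrays. Of the 24 genes, the groups did not overlap for 1 with mutants lower and 1 with mutants higher. Such a separation in either direction was seen in 8.07% of all genes. Plasminogen itself differed by 0.0014 (95% interval -0.28 to 0.28).

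Metalloproteinases that Timps inhibit, together with known Timp partners, gave 19 measured genes. Over all genes 1 of them passed in limma, higher in mutant cells, against 0.0879% of all genes tested. At an unadjusted p under 0.05 in limma, 7 were lower and 1 was higher, against 9.69% and 5.84% of all genes tested. The median difference was -0.26. Efemp1, which encodes fibulin-3, a known binding partner of the human TIMP3 protein, rose by 0.86 on the log2 scale (SE 0.11, adjusted p = 0.0486 in limma), with 12.80, 12.85, 12.88 and 12.53 on mutant arrays 1 to 4, against 11.90, 12.11, 11.77 and 11.84 on control arrays 1 to 4. It stood higher on all mutant arrays, a separation seen in either direction in 2 of the 19 genes and in 8.07% of all genes. The call was lost when any single array other than mutant 4 was left out, with adjusted p up to 0.216 in limma. It was also lost with the replicate number as a block (adjusted p = 0.102 in limma) and with the labelling controls as a block (adjusted p = 0.0729 in limma).

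The collagenase gene Mmp13 had the most negative difference of this list, with 11.15, 11.00, 9.43 and 12.99 on mutant arrays 1 to 4, against 13.75, 13.45, 12.97 and 12.67 on control arrays 1 to 4. As for Timp1, mutant arrays 1 to 3 lay below all controls and mutant array 4 lay among them. The difference was -2.07 (SE 0.65, adjusted p = 0.218 in limma). Adam12, a membrane metalloprotease, differed by -1.26 (SE 0.38), and Mmp23 by -0.55 (SE 0.18). Mmp14, the membrane protease through which Timp2 acts on Mmp2, averaged 10.79 ± 0.30 in mutant and 11.22 ± 0.10 in control arrays (SD, n = 4 each), a difference of -0.43 (SE 0.14). Of the 19 genes, 13 had a negative and 6 a positive difference, against 9398 and 8795 of the 18193 genes tested. The protease gene Mmp9 was among those with a positive difference, at 1.20 (SE 0.53). Negative differences were thus found among the proteases as well as among their inhibitors, and none of those negative differences passed over all genes.

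**Figure D4:**
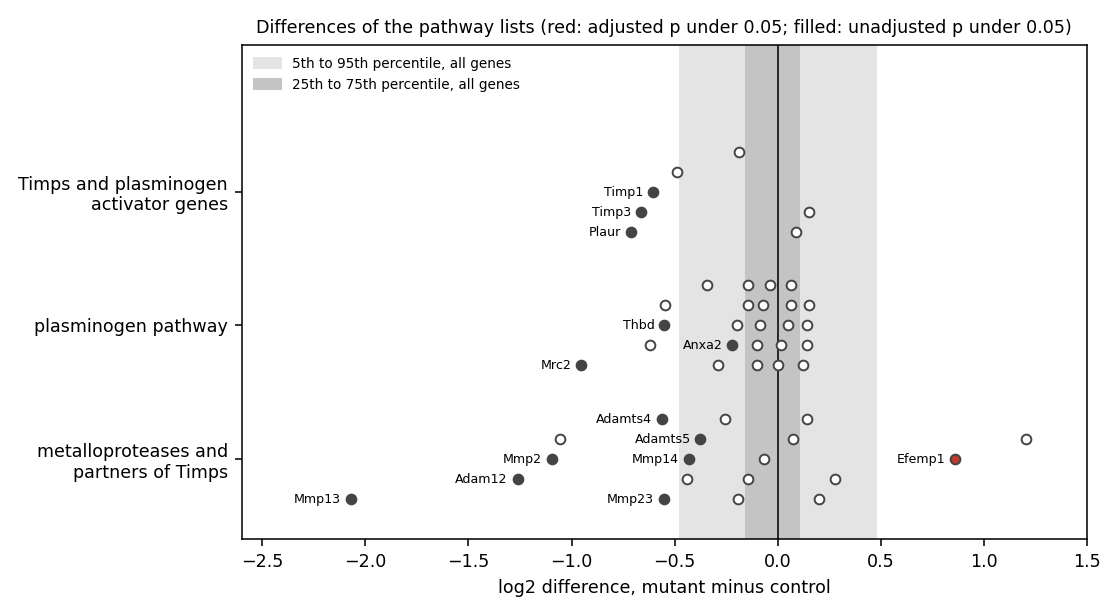
Log2 difference, mutant minus control (x axis), of the 7 measured genes, of 24 other genes of the plasminogen pathway and of 19 metalloproteases and Timp partners, each point being a gene; grey bands give the middle ranges of all genes tested. Efemp1 (red) passed over all genes, and named grey points had an unadjusted p under 0.05, Mmp13 being the farthest left at -2.07.

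Timp1, Timp3 and Timp4 share a genomic setting. In the RefSeq table Timp1 lies inside the synapsin gene Syn1, Timp3 inside Syn3 and Timp4 inside Syn2. Synapsins are proteins of the synaptic vesicle and are not known for expression in mesenchyme. None of the 3 host genes passed over all genes in limma. Syn1 differed by 0.25 (SE 0.17), Syn3 by 0.18 (SE 0.09) and Syn2 by 0.02 (SE 0.09), and Syn3 and Syn2 lay below the median probe set on all arrays. Timp3 and its host gene thus had differences of opposite sign.

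The members varied together to different degrees over the 8 arrays, which share processing and the same differences in cell makeup. Pearson's r was 0.82 between Timp1 and Timp2 and 0.80 after each genotype was centred on its mean. Timp1 and Plaur had r = 0.79, and 0.64 after centring. Between Timp1 and Timp3 it was 0.75, and 0.46 after centring. Plau and Plaur had r = 0.73, and 0.77 after centring. Control array 4 was the highest for both genes (10.45 and 11.28), and r without that array was not computed. Timp2 and Plaur had r = 0.78, and 0.74 after centring, while Timp3 and Timp4 had r = -0.74, and -0.64 after centring. Plat had r = -0.35 with Plau, -0.21 with Timp4 and none above 0.09 with any member. After centring, Plat had r = 0.43 with Timp1, 0.42 with Timp3, -0.46 with Timp4 and -0.29 with Plau.

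Genes with the pattern most like that of each member, by Pearson's r over the 8 arrays among 11693 genes brighter than the median probe set, were sought without a test. For Timp3 they were Rab33b (r = 0.993), Gpr180 (r = 0.989) and Fkbp14 (r = 0.987). For Timp1 they were Ero1a (r = 0.991), Etl4 (r = 0.990) and Gap43 (r = 0.988), and for Plaur they were Wwc2 (r = 0.992), Zfp697 (r = 0.991) and Eva1a (r = 0.989). Timp2 was most like Nbea (r = 0.982), Lnx2 (r = 0.980) and Rbms2 (r = 0.979), and Plau was most like Map2k3 (r = 0.981), Otud4 (r = 0.973) and Eogt (r = 0.973). Timp4 had Abcc5, Tmem234 and Tigd5 (r = 0.956, 0.956 and 0.955), and Plat had Fndc3a, Cdyl2 and Bptf (r = 0.906, 0.891 and 0.885). The best of so many genes over 8 arrays reaches a high r by selection, so these names are a description only.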

How the data were processed

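Biotin-labelled total RNA was read on Affymetrix arrays, per the labels' protocols. The authors deposited a log2 intensity for each probe set on each array, made with RMA per the submitters' processing notes, which name no version. These values spanned 3.21 to 15.18, their medians per array lay between 6.90 and 6.96, and they were used as deposited.

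Of 45101 probe sets, 64 were array controls and 34945 had 1 gene symbol. Symbols were updated by Entrez identifier through a RefSeq table (GRCm38.p6). The probe set with the highest mean represented each gene, giving 18193 genes. Differences (mutant minus control) were fitted over all genes by limma 3.58.1 (R 4.3.3; functions lmFit and eBayes) as a two-sided test without covariates, with Benjamini-Hochberg adjustment and a threshold of 0.05. SE values and 95% intervals are limma's moderated ones. The procedure was tested on simulated data. Named list genes were those past the test, then the 4 smallest p-values per pathway list. The members, gene lists and batch alternatives were chosen with earlier results of these data known. Alternatives covered normalisation, probe set choice, dim genes, variance model, array weights, batches, a macrophage covariate and leaving out each array. Motifs were searched on both strands in the 250 bases upstream of the RefSeq start.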

Additional observations from a re-analysis of the deposited data

Results flagged for a closer look

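For each of the 7 genes and each genotype, the array farthest from the others was compared with Dixon's critical value for 4 samples, as the gap to the nearest other array over the range of the group. Of these 14 groups, 2 had such an array, both for Plau; chance alone gives about 1 in 20. Plau read 6.92 on mutant array 3, with a gap over range of 0.849, and 10.45 on control array 4, with a gap over range of 0.842. The nearest other arrays read 7.98 and 7.88.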

How the results depend on the processing

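Timp3, Timp1, Timp4 and Plaur kept their sign under all 22 alternatives. For Timp3 this was certain beforehand in the fits that leave out 1 array or stay within a batch, since its groups do not overlap. For Timp1 and Plaur it was certain within the first hybridisation batch and the larger labelling batch. The mutants there, 1 and 2, lay below every control. Timp3 had an unadjusted p under 0.05 in 20 of them in limma, Timp1 in 13 and Plaur in 9. The count of the 7 genes past the test was 2 with array weights (Timp3 -0.84, Timp1 -0.74), 2 within the first hybridisation batch, 0 to 2 with 1 array left out, and 0 under the other settings. The count at an unadjusted p under 0.05 was 1 to 4 with 1 array left out, 1 with the macrophage covariate, and 0 within the second hybridisation batch and within the labelling batch of mutants 3 and 4 and control 3. Of all genes, 1470 passed with array weights, 2085 within the first hybridisation batch, 0 within the second, 0 and 4 within the smaller and larger labelling batches, 52 with the macrophage covariate, 2 with the labelling batch as a block, 1 when every probe set was tested, and 0 to 1316 with 1 array left out. The median of the 7 differences was -0.18 with array weights, -0.039 with the covariate, -0.19 within the first hybridisation batch, -0.28 when labelling batches were blocked and -0.63 to -0.14 with 1 array left out. Plau turned to 0.011 with array weights, to 0.44 within the first hybridisation batch, to 0.11 within the smaller labelling batch and to 0.23 without control 4 (-0.79 to 0.23 with 1 array left out), Plat to -0.25 within the smaller labelling batch, and Timp2 to 0.0088 with the covariate. Efemp1, run under these settings after it was seen to pass, lost its call in 13 of 22, among them the replicate block and the labelling batch, and kept its sign in all. The counts within batches and all values within labelling batches were added after seeing the data. For the other changes the cause was not tested.

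Replicate numbers are shared between genotypes, but samples of the same number did not all deviate together (correlations of 0.47, 0.42, -0.09 and 0.37 over all genes), and no mutant sample correlated best with the control of its own number, so the numbers were not taken as pairs. Samples of the same number did fall in the same group by bioB level. With the replicate block 0 genes passed, against 16, and the 7 genes kept their calls. With 4 arrays per genotype and no detection calls, small differences of dim probe sets such as those of Timp4 could not be resolved.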
